A study of Mus musculus with 96 samples.

Results

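The proteasome genes described here are the 46 genes whose symbol starts with Psma, Psmb, Psmc, Psmd, Psme, Psmf or Psmg and whose mean level over all 96 libraries reached 1 CPM (the count scaled to a common library size). They were taken from the 48795 genes of the deposited count table, in which 49 symbols matched the pattern. Just inside the level limit stood Psmb8 with a mean of 2.19 CPM, and just outside it stood Psmb9 with 0.993 CPM, followed by Psma8 with 0.306 CPM and Psmb11 with 0.0459 CPM. The name proteasome subunits covers the set only in part. The 46 genes held 14 constitutive core subunits (7 alpha, 4 non-catalytic beta and 3 catalytic beta), 2 immunoproteasome catalytic subunits, 17 regulatory particle subunits (6 ATPases and 11 others), 6 activators or inhibitors and 7 assembly chaperones. Regulatory subunits with other names, such as Adrm1 and Shfm1, fell outside the pattern and were counted in a list of partners.

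Total RNA libraries came from striatum and cerebral cortex of 48 mice of the C57BL/6 background at 6 months of age. There were 6 genotypes of 8 animals each, with 4 females and 4 males per genotype. Q140 Pms1 null mice carried the Q140 huntingtin knock-in on 1 allele and lacked both functional copies of Pms1, a DNA mismatch repair gene. Q140 Pms1 het mice carried the same knock-in allele and 1 disrupted Pms1 copy, and Q140 mice carried the knock-in allele with both Pms1 copies intact. Pms1 null, Pms1 het and WT mice carried no knock-in. Q140 is an allele of the mouse huntingtin gene with an expanded polyglutamine stretch, used as a model of Huntington's disease, and as an endogenous allele it is not restricted to a cell type. The design of the Pms1 allele was not given in the sources used here.

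The proteasome is the main protease for ubiquitin-tagged proteins in the cytosol and nucleus. A barrel of alpha and beta rings holds the catalytic sites, and a regulatory particle with an ATPase ring at its base binds, deubiquitinates, unfolds and feeds the substrate into the barrel. Interferons induce alternative catalytic subunits (Psmb8, Psmb9 and Psmb10) and the PA28 alpha and beta activator (Psme1 and Psme2), which caps the barrel independently of ATP and ubiquitin. Transcription of the constitutive subunits is raised together by the factor NRF1, encoded by Nfe2l1, when proteasome activity is limiting. In Huntington's disease, mutant huntingtin forms ubiquitin-positive inclusions, and medium spiny neurons of the striatum are the most affected cells.

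Library totals ran between 27993751 and 56364535 counts. The tissue labels were checked with marker genes. Drd1, a dopamine receptor of medium spiny neurons, lay between 257 and 409 CPM in the striatal libraries and between 4.07 and 7.40 CPM in the cortical libraries. Slc17a7, a vesicular glutamate transporter of cortical excitatory neurons, lay between 1127 and 1391 CPM in cortex and at or under 5.94 CPM in 44 striatal libraries. It lay between 15.4 and 29.9 CPM in the other 4 striatal libraries, of which 2 were Pms1 null, 1 was Q140 Pms1 het and 1 was Q140 Pms1 null. Pms1 itself averaged 4.03 ± 0.445 CPM in Pms1 null striatum and 5.44 ± 0.343 CPM in WT striatum (SD, n = 8 each), a log2 fold change of -0.43 in edgeR's quasi-likelihood test (adjusted p = 0.000698). In cortex the log2 fold change of Pms1 was -0.10 (adjusted p = 0.467 in edgeR), and the label check by Pms1 counts therefore rests on striatum. The animals' codes start with a number whose meaning the labels do not give. All 8 Pms1 null and all 8 Q140 Pms1 null animals had a number of at least 16, called a late code below, against 1 Q140 Pms1 het, 3 Q140, 0 Pms1 het and 2 WT animals.

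Promoter windows from RefSeq (GRCm38.p6, 250 bases before to 50 bases after the annotated start) matched 39 of the 46 genes. The windows of 4 genes called in Q140 striatum are shown 5′ to 3′ on the gene's strand, for the activator pair, the immunoproteasome subunit and an ATPase subunit. They are Psme1 at chr14:55578244-55578543 on the plus strand, Psme2 at chr14:55591052-55591351 on the minus strand, Psmb10 at chr8:105938343-105938642 on the minus strand and Psmc2 at chr5:21785025-21785324 on the plus strand. Capitals mark a GAAANNGAA match on the opposite strand in Psme1 and a CCAAT match in Psmc2. A second annotated start of Psmc2, with its window at chr5:21786497-21786796, also has a GAAANNGAA match, 8 bases before the start. Psmc5 and Psmg3, also called in Q140 striatum, had no match to any motif searched and are not shown.
Psme1: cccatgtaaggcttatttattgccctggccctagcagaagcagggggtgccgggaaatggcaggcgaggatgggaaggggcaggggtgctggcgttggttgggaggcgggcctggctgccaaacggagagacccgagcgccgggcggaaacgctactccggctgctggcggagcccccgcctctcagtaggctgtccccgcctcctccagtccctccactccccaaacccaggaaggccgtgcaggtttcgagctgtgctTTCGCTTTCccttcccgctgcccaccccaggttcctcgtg
Psme2: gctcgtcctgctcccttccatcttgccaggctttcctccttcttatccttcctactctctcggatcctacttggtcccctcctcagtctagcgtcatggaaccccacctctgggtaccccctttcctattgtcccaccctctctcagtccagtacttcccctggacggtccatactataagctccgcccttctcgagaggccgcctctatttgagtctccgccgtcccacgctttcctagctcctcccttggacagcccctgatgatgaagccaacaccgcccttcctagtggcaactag
Psmb10: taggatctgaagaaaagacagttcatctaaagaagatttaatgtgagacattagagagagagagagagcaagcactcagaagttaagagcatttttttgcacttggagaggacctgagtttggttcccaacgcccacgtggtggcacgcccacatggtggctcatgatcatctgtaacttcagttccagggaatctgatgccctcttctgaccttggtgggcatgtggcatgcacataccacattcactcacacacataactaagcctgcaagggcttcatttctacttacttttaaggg
Psmc2: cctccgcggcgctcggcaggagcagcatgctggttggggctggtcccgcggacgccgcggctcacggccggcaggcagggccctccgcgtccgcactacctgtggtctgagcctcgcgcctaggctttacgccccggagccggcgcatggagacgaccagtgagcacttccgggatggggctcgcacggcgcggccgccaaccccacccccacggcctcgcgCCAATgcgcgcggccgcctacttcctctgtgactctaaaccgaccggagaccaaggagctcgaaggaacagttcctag

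The Psme1 match starts 11 bases after the annotated start, and the Psmc2 match starts 28 bases before it. Each of 4 short motifs was searched on both strands of all windows. GAAANNGAA, the core of the interferon-stimulated response element, occurred in 7 of the 39 proteasome genes (17.9%), against 9.76% of 27025 genes with a window. The 7 were Psme1, Psmb3, Psmb4, Psmc2, Psmd4, Psmd9 and Psmg4, while Psmb8, Psmb10 and Psme2 had no match to this motif. On the gene's own strand alone GAAANNGAA occurred in 3 of the 39 (7.69%), against 5.15% of all genes. TTCNNNGAA, the gamma-activated site, occurred in 3 of 39 (7.69%), against 9.55% of all genes. These 3 were Psmb8, Psmd2 and Psmg1. TGACNNNGC, the core of the antioxidant response element bound by NRF1, occurred in 6 of 39 (15.4%), against 14.0% of all genes. CCAAT, the box bound by NF-Y, occurred in 12 of 39 (30.8%), against 41.1% of all genes. On the gene's own strand alone CCAAT occurred in 28.2% of the 39, against 23.7% of all genes, which turns the direction of that difference. These matches describe letters in short windows and were not tested.

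In the deposited FPKM values, which are per length and can be set between genes, the 46 genes spanned 0.787 FPKM (Psmb8) to 79.5 FPKM (Psmb1) in striatum and 0.815 FPKM (Psmb8) to 93.5 FPKM (Psmc5) in cortex. In each tissue 30 of them exceeded 10 FPKM. The constitutive catalytic subunits Psmb5 (chymotrypsin-like site), Psmb6 (caspase-like site) and Psmb7 (trypsin-like site) averaged 36.9, 36.9 and 19.6 FPKM in striatum and 40.0, 29.7 and 21.2 FPKM in cortex. Their immunoproteasome counterparts were lower in both tissues. Psmb8, which replaces Psmb5, lay below 1 FPKM in both tissues, and Psmb10, which replaces Psmb7, averaged 3.81 FPKM in striatum and 12.8 FPKM in cortex.

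The question of the Q140 against WT comparison is how the knock-in changes the transcriptome. In Q140 striatum the PA28 activator and an immunoproteasome subunit were higher. With TMM scaling of the libraries several ATPases of the regulatory particle were slightly lower, while none of the 14 constitutive core subunits was called. With library totals 0 of the 46 genes were lower and some core subunits were called higher, as given below. Of the 46 genes, 5 were higher (Psme1, Psmb10, Psmg3, Psme2 and Psme2b) and 5 were lower (Psmc5, Psmc2, Psmc1, Psmd7 and Psmd3) at an adjusted p below 0.05 in edgeR's quasi-likelihood test with Benjamini-Hochberg adjustment over all genes. Across the 18890 genes tested, 15.9% were higher and 15.4% were lower, so the shares of the proteasome genes were below the background in both directions. The log2 fold change was positive for 22 and negative for 24 of the 46, with a median of -0.000, beside a median of 0.012 over all genes.

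Psme1 (ENSMUSG00000022216, chr14:55578123-55581529 on the plus strand of GRCm38), the alpha subunit of PA28, gave the largest difference among the 46 genes. Its level was 20.4, 22.6 and 23.8 CPM (lowest, median and highest) in Q140 striatum and 15.8, 16.9 and 18.2 CPM in WT striatum. Every Q140 library lay above every WT library. The means were 22.4 ± 0.976 CPM in Q140 and 16.8 ± 0.811 CPM in WT (SD, n = 8 each), a log2 fold change of 0.41 (SE 0.043, adjusted p = 5.42e-11). Emc9, which overlaps Psme1 on the opposite strand, averaged 18.5 CPM in Q140 and 18.0 CPM in WT striatum, with a log2 fold change of 0.04 (edgeR, adjusted p = 0.538). By code number, the log2 fold change of Psme1 was 0.44 in the animals with early codes (adjusted p = 4.34e-08) and 0.31 in the 3 Q140 and 2 WT animals with late codes (adjusted p = 0.0958 in edgeR).

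**Figure D1:**
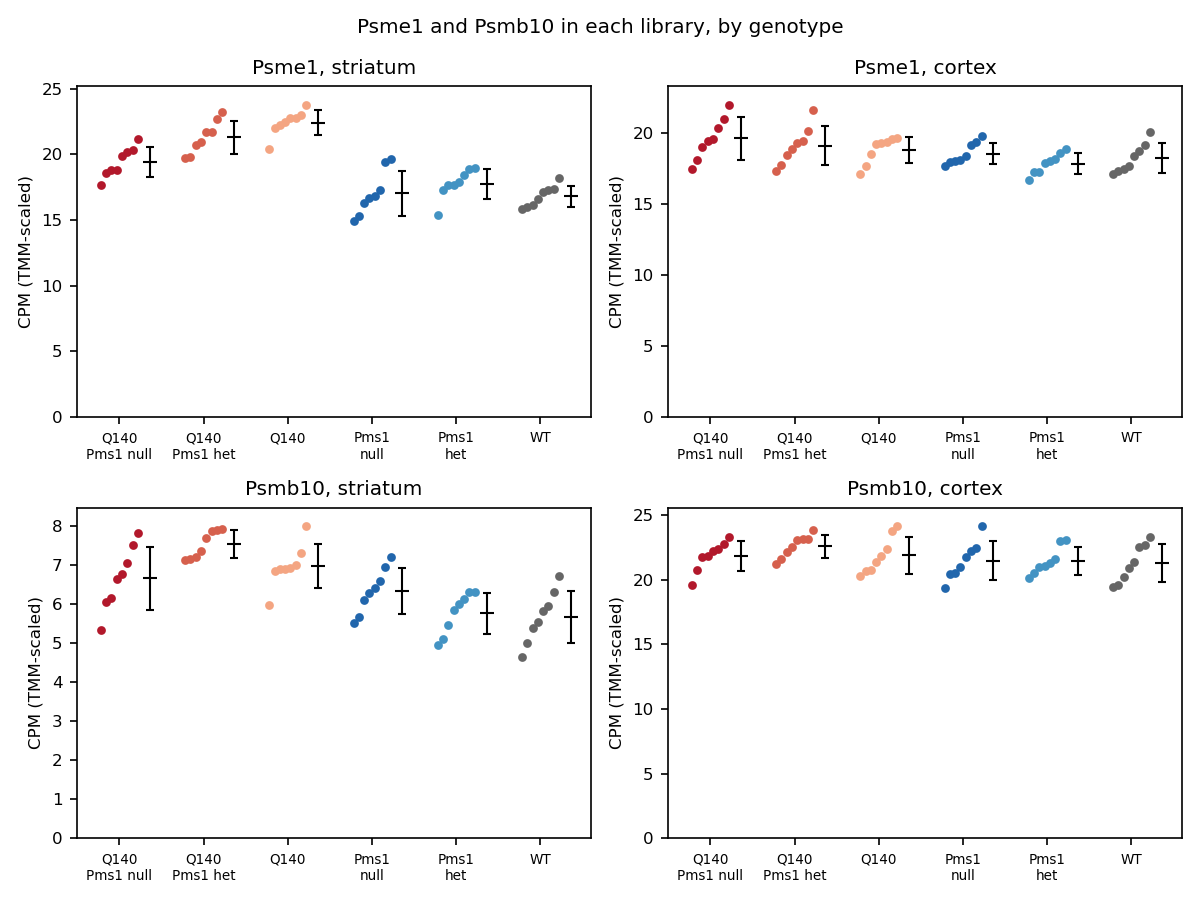
Psme1 (top) and Psmb10 (bottom) in striatum (left) and cortex (right), in TMM-scaled CPM from 0, with a point for each library and black marks for the mean and SD of the 8 animals per genotype. In striatum all Q140 points for Psme1 (20.4 to 23.8 CPM) lie above all WT points (15.8 to 18.2 CPM), whereas in cortex the groups overlap and Psmb10 stands several times higher than in striatum.

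Psmb10 (ENSMUSG00000031897, chr8:105935735-105938444, minus strand) ranged from 5.96 to 7.99 CPM around a median of 6.91 in Q140 striatum, and from 4.65 to 6.70 CPM around a median of 5.68 in WT striatum. The groups overlapped, with most Q140 libraries above most WT libraries, and the log2 fold change of 0.30 (SE 0.068) had an adjusted p = 0.000436 in edgeR. It was 0.41 in females alone (adjusted p = 0.00144) and 0.18 in males alone (adjusted p = 0.204 in edgeR). Psmb8, the other immunoproteasome subunit above the level limit, was at 1.77, 2.21 and 2.47 CPM in Q140 and 1.57, 2.26 and 3.202 CPM in WT. Its log2 fold change of -0.09 (SE 0.109, adjusted p = 0.586) has a 95% interval of -0.30 to 0.13. Psmb9, below the level limit, averaged 0.956 CPM in Q140 and 0.949 CPM in WT, with a log2 fold change of 0.01 (edgeR, adjusted p = 0.981).

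The beta subunit of PA28 moved less than the alpha subunit. Psme2 was at 5.68, 6.14 and 7.11 CPM in Q140 striatum and 5.08, 5.604 and 6.08 CPM in WT striatum, a log2 fold change of 0.18 (SE 0.065, adjusted p = 0.0311) with overlapping groups. Psme2b, a close copy of Psme2 on another chromosome, was at 8.98, 9.63 and 10.9 CPM in Q140 and 8.10, 8.70 and 9.26 CPM in WT, a log2 fold change of 0.16 (SE 0.054, adjusted p = 0.0187). Reads of such copies may be split between them, and Psme2b also overlaps other genes on its strand, so both values are uncertain. The other activators, Psme3 of nuclear PA28 gamma and Psme4 of PA200, and the inhibitor gene Psmf1 were not called. Psmf1 had a log2 fold change of 0.07 (edgeR, adjusted p = 0.093).

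Psmg3, an assembly chaperone of the alpha ring, was at 6.23, 6.58 and 7.42 CPM in Q140 striatum and 5.30, 5.81 and 6.05 CPM in WT striatum. The groups did not overlap. Its log2 fold change of 0.22 (SE 0.057) had an adjusted p = 0.00253 in edgeR, although another annotated gene overlaps Psmg3 on the same strand and the value is uncertain for that reason. It was the only 1 of 7 chaperones called. Besides Psme1, Psmg3 was the only called gene of the set whose groups were separate. The share of all tested genes with separate groups is not given here.

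Some subunits of the regulatory particle went the other way by small steps. Of its 6 ATPases 3 were lower and none was higher, with a median log2 fold change of -0.065 over the 6. Of its 11 other subunits 2 were lower, beside 15.4% of all genes. The rest were not called. Some of these had higher means in Q140 than in WT, such as Psmc4 (62.3 against 60.6 CPM) and Psmd8 (62.2 against 60.5 CPM). Psmc5 was at 96.4, 101 and 108 CPM in Q140 striatum and 105, 114 and 120 CPM in WT striatum, a log2 fold change of -0.14 (SE 0.035, adjusted p = 0.00101). Psmc2 was at 71.9, 75.5 and 80.4 CPM in Q140 and 77.6, 81.8 and 84.5 CPM in WT, a log2 fold change of -0.11 (SE 0.025, adjusted p = 0.000715). Both sets of libraries overlapped at their edges.

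Psmc1 was at 90.9, 96.4 and 103 CPM in Q140 and 100, 103 and 107 CPM in WT, a log2 fold change of -0.09 (SE 0.025, adjusted p = 0.00718). Among the non-ATPase subunits, Psmd7, which pairs with the deubiquitinase Psmd14, had a log2 fold change of -0.08 (SE 0.031, adjusted p = 0.0338), and the lid subunit Psmd3 had -0.07 (SE 0.026, adjusted p = 0.0365). Psmd14 was at 65.2, 68.7 and 73.2 CPM in Q140 and 67.2, 70.9 and 72.9 CPM in WT, with a log2 fold change of -0.03 (edgeR, adjusted p = 0.405). With the first code number as a correlated block the calls of Psmd7 and Psmd3 were lost (limma voom, adjusted p = 0.0614 and 0.0687). All 5 decreases depended on scaling. With library totals in place of TMM factors, the median of all genes in this comparison moved to 0.086 from 0.012 (log2), 23 of the 46 were called higher and 0 lower, and the log2 fold changes of Psmc5, Psmc2 and Psmc1 were -0.07, -0.03 and -0.01 (adjusted p = 0.082, 0.25 and 0.723). Psme1, Psmb10 and Psmg3 had log2 fold changes of 0.49, 0.38 and 0.29 under that scaling.

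Under TMM scaling none of the catalytic core subunits was called. Psmb5 was at 30.9, 32.4 and 34.6 CPM in Q140 striatum and 30.3, 31.5 and 33.9 CPM in WT striatum (log2 fold change 0.05, SE 0.037, adjusted p = 0.365). Psmb6 was at 66.7, 68.1 and 70.2 CPM in Q140 and 63.9, 69.5 and 72.5 CPM in WT (log2 fold change -0.02, adjusted p = 0.585), and Psmb7 was at 62.7, 67.2 and 71.3 CPM in Q140 and 62.0, 67.6 and 74.2 CPM in WT (log2 fold change -0.00, adjusted p = 0.999). With library totals Psmb5 and Psmb7 were called higher, with log2 fold changes of 0.12 and 0.074 (edgeR, adjusted p = 0.0064 and 0.0384). Of the 7 alpha subunits edgeR called 0, with 0 higher and 1 lower at an unadjusted p below 0.05, and of the 7 beta subunits it had 0 at that level. Among the core subunits the lowest value was that of Psma3, with a log2 fold change of -0.07 (edgeR, adjusted p = 0.0824).

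**Figure D2:**
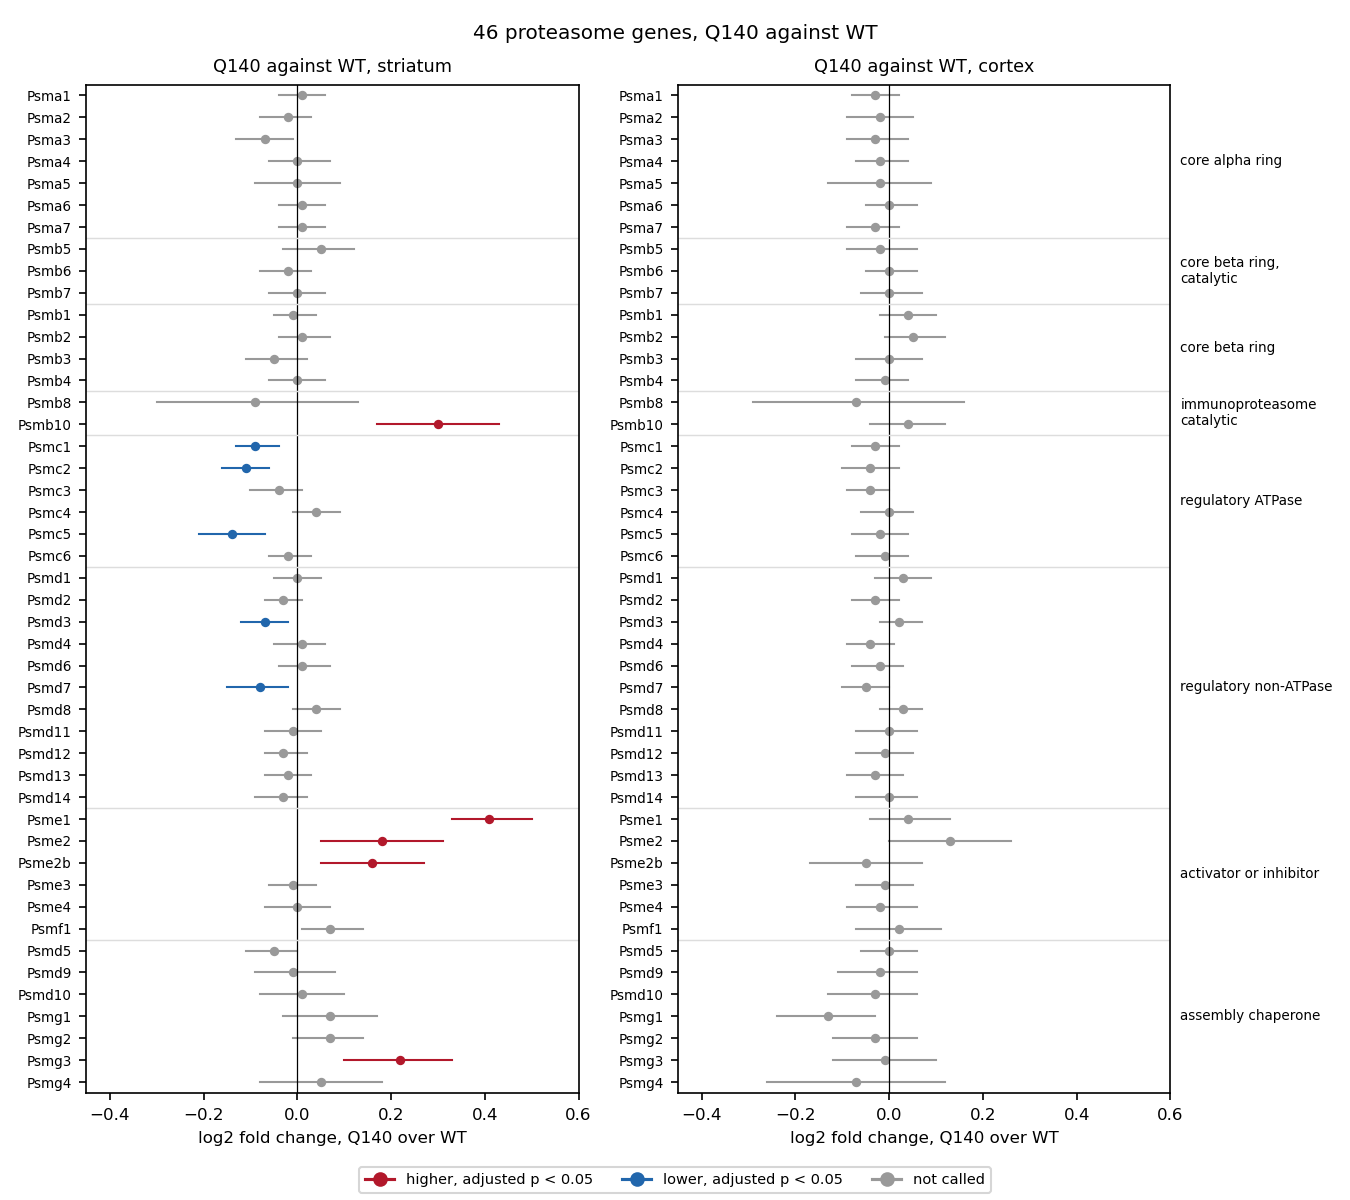
Log2 fold change of Q140 over WT for each of the 46 proteasome genes, grouped by role, in striatum (left) and cortex (right), with the 95% interval as a line; red is higher, blue is lower and grey is not called at an adjusted p below 0.05. In striatum Psme1 stands out at 0.41 and the 3 lowest called ATPases lie between -0.14 and -0.09, while in cortex no gene is called.

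Summed levels restate the same libraries by part and were not tested. The 14 core subunits together were at 687.7, 712.3 and 729.1 CPM in Q140 striatum and 689.4, 711.2 and 729.2 CPM in WT striatum, 2 nearly identical ranges under TMM scaling. The 17 regulatory subunits together were at 1328, 1390 and 1428 CPM in Q140 and 1375, 1416 and 1469 CPM in WT, with overlapping ranges. Psme1, Psme2 and Psme2b together were at 36.0, 38.8 and 40.5 CPM in Q140 and 29.0, 31.1 and 32.7 CPM in WT, with no overlap. Each of these genes was called higher in the same libraries, so their sum adds no separate support.

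**Figure D3:**
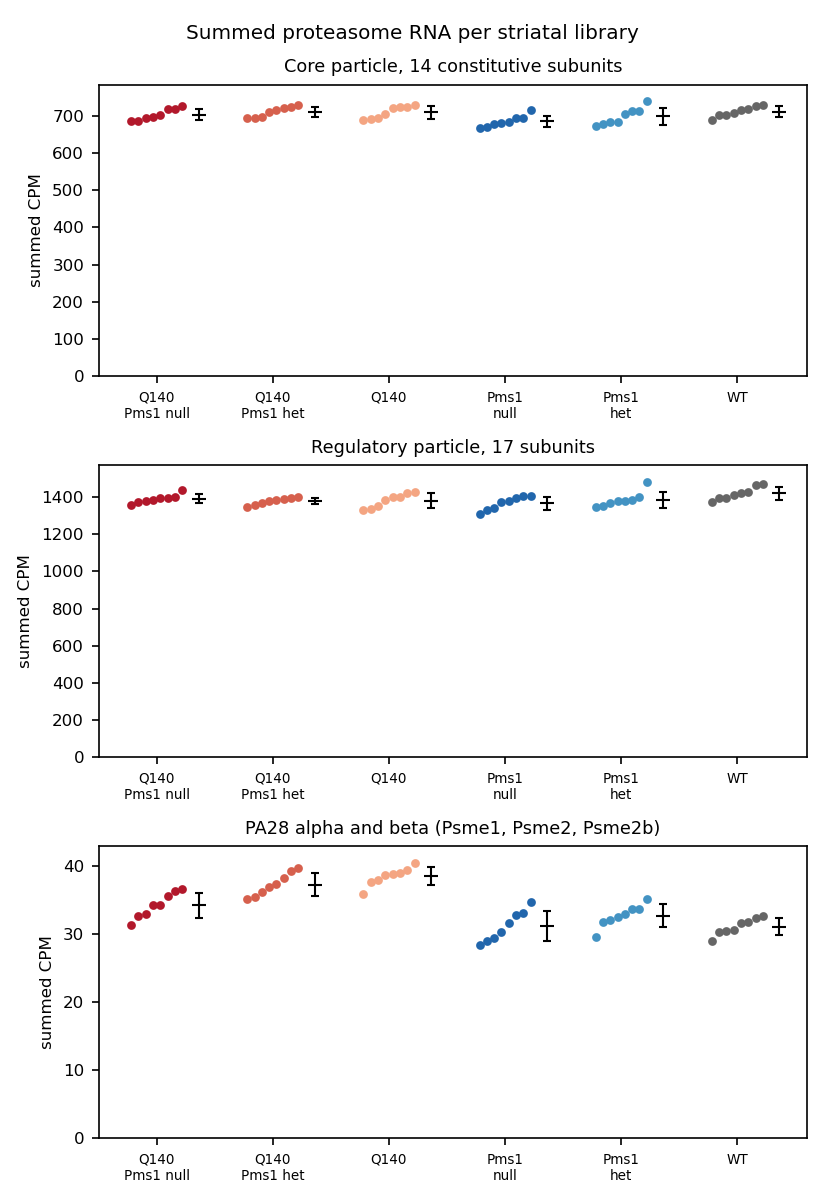
Summed TMM-scaled CPM per striatal library of the 14 constitutive core subunits (top), the 17 regulatory particle subunits (middle) and Psme1, Psme2 and Psme2b (bottom), with axes from 0, a point for each library and black marks for mean and SD of 8 animals. The PA28 sums of Q140 (36.0 to 40.5 CPM) lie above those of WT (29.0 to 32.7 CPM), while the core sums of Q140 and WT cover the same range.

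Other genes of the pathway were counted from lists, beside 15.9% of all genes higher and 15.4% lower in this comparison. Of 13 proteasome partners with other names, 0 were higher and 3 were lower in Q140 striatum, namely the subunit gene Shfm1 (log2 fold change -0.13), AI314180, the mouse name of the proteasome adaptor Ecm29 (-0.11), and the core maturation factor Pomp (-0.07). Of 12 shuttle receptors and segregase genes 2 were higher and 3 were lower, led by Faf1 (0.25) and Ubqln4 (-0.23). Of 12 ubiquitin and ubiquitin-activation genes 1 was higher (Uba1, 0.13) and 3 were lower, among them the conjugating enzyme gene Ube2k (-0.08). Of 10 regulators of proteasome genes 1 was higher, the NF-Y subunit Nfya (log2 fold change 0.31, adjusted p = 4.85e-07 in edgeR), and 2 were lower. Nfe2l1, which encodes NRF1, averaged 300.5 CPM in Q140 striatum and 350.3 CPM in WT striatum with no overlap (log2 fold change -0.22, SE 0.022, adjusted p = 1.34e-11 in edgeR).

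Of 20 antigen processing and interferon genes only Erap1, an aminopeptidase that trims peptides for presentation, was called. It averaged 9.09 CPM in Q140 and 7.32 CPM in WT striatum without overlap, a log2 fold change of 0.31. The summed level of the 20 genes was between 194 and 252 CPM in Q140 and between 191.5 and 255 CPM in WT.

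Cell type markers moved in the same comparison, in which 15.9% of all genes were higher and 15.4% were lower. Of 12 medium spiny neuron markers 1 was higher and 11 were lower, with Penk at a log2 fold change of -1.07 and summed levels of 9610 to 10940 CPM in Q140 and 15010 to 16900 CPM in WT. Of 12 microglial markers 0 were higher and 8 were lower (summed 489.7 to 579.7 CPM in Q140 and 561.4 to 609.5 CPM in WT), and of 12 endothelial and mural markers 0 were higher and 6 were lower (383 to 443 CPM in Q140 and 428 to 477 CPM in WT). Of 10 astrocyte markers 3 and of 10 oligodendrocyte markers 1 were lower, and of 10 cortical glutamatergic markers 3 were higher, while Slc17a7 averaged 3.74 CPM in Q140 and 3.95 CPM in WT. None of the 4 striatal libraries with high Slc17a7 belonged to Q140 or WT. The part of these markers in the proteasome results was not tested, and in bulk tissue fewer cells of a type and less RNA per cell cannot be told apart.

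The knock-in was also present on 2 other Pms1 backgrounds. In Q140 Pms1 het against Pms1 het striatum 6 of the 46 genes were higher and 2 were lower, beside 12.8% and 12.1% of all genes. Psme1 was at 19.7, 21.3 and 23.2 CPM in Q140 Pms1 het and 15.4, 17.8 and 19.0 CPM in Pms1 het, again without overlap (log2 fold change 0.26, SE 0.044, adjusted p = 7.39e-06). Psmb10 was at 7.13, 7.53 and 7.93 CPM in Q140 Pms1 het and 4.96, 5.92 and 6.29 CPM in Pms1 het, also without overlap (log2 fold change 0.39, SE 0.069, adjusted p = 2.25e-05). Both genes thus had the same direction as in Q140 against WT.

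The catalytic subunits Psmb5 and Psmb7 were called higher on the Pms1 het background, each with a log2 fold change of 0.10 (edgeR, adjusted p = 0.0392 for Psmb5 and 0.0122 for Psmb7). Psmb7 was at 67.0, 69.8 and 72.8 CPM in Q140 Pms1 het and 60.9, 64.8 and 69.7 CPM in Pms1 het. The lower genes were the ATPases Psmc1 at 92.9, 96.1 and 99.9 CPM in Q140 Pms1 het and 97.3, 101 and 108 CPM in Pms1 het (log2 fold change -0.08, adjusted p = 0.0187), and Psmc2 with -0.07 (adjusted p = 0.0312).

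In Q140 Pms1 null against Pms1 null striatum 2 of the 46 genes were higher and none was lower, beside 5.59% and 5.47% of all genes. Psme1 was at 17.7, 19.3 and 21.2 CPM in Q140 Pms1 null and 15.0, 16.8 and 19.6 CPM in Pms1 null, and the groups overlapped (log2 fold change 0.19, SE 0.044, adjusted p = 0.00273). Psmd8, a lid subunit, was at 58.5, 61.6 and 64.2 CPM in Q140 Pms1 null and 55.8, 58.5 and 59.8 CPM in Pms1 null (log2 fold change 0.08, SE 0.026, adjusted p = 0.028). Psmb10 was at 5.34, 6.69 and 7.81 CPM in Q140 Pms1 null and 5.52, 6.34 and 7.19 CPM in Pms1 null, a log2 fold change of 0.08 (edgeR, adjusted p = 0.548).

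The difference between the knock-in effects was tested as an interaction. For Psme1 the effect on the Pms1 null background was smaller than that on the WT background by 0.23 on the log2 scale (interaction -0.23, SE 0.062, adjusted p = 0.02). EdgeR called 0 of the 46 genes positive and 1, Psme1, negative, beside 3.37% of all genes positive and 1.68% negative, and DESeq2 called 2 positive and 1 negative. The term for Psme1 was -0.17 in females alone (adjusted p = 0.379) and -0.28 in males alone (adjusted p = 0.125 in edgeR), so neither sex alone gave the call. The same term for Psmb10 was -0.23 (adjusted p = 0.177), and for Psme1 between the Pms1 het and WT backgrounds it was -0.15 (adjusted p = 0.478). Between females and males the striatal Q140 effect was called by edgeR for 0 of the 46 genes and for 0% of all genes, with 0 higher and 1 lower of the 46 at an unadjusted p below 0.05. The effect on Psme1 differed by -0.11 (females minus males, adjusted p = 0.895 in edgeR). The log2 fold change of Q140 over WT was 0.36 in females (adjusted p = 0.000255) and 0.47 in males (adjusted p = 5.79e-07).

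Set directly against Q140 striatum, Q140 Pms1 null striatum had 1 of the 46 genes lower and 1 higher, beside 2.03% of all genes lower and 5.07% higher. The lower gene was Psme1, with a log2 fold change of -0.21 (SE 0.043, adjusted p = 0.000919). The higher gene was Psmd3, at 114, 119 and 124 CPM in Q140 Pms1 null and 108, 114 and 117 CPM in Q140 (log2 fold change 0.08, SE 0.026, adjusted p = 0.0412). The call of Psmd3 was lost with the first code number as a correlated block (limma voom, adjusted p = 0.055), without the filter on low counts (0.0875), with only the 2 genotypes fitted (0.0651) and with library totals (0.236). These comparisons share the Q140 or Pms1 null animals with those above. In the 8 Q140 Pms1 null and 3 Q140 animals with late codes the log2 fold change of Psme1 was -0.20 (adjusted p = 0.215 in edgeR). In Q140 Pms1 het against Q140 striatum edgeR called 0 of the 46 genes and 0% of all genes, with 0 of the 46 at an unadjusted p below 0.05 and 0 called by DESeq2. Psme1 had a log2 fold change of -0.07 there, with a 95% interval of -0.16 to 0.01.

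Averaged over the 3 backgrounds, the knock-in effect in striatum was called for 12 of the 46 genes as higher and for 5 as lower, beside 22.5% and 20.0% of all genes. Psme1 had a mean log2 effect of 0.29 (SE 0.025, adjusted p = 9.06e-14) and Psmb10 of 0.25 (SE 0.040, adjusted p = 5.25e-07). The chaperone Psmg3 followed with 0.13 (adjusted p = 0.000847 in edgeR), Psme2 with 0.12 and Psme2b with 0.11. The catalytic subunits Psmb5 and Psmb7 were also called higher, with 0.08 and 0.05, and the 5 decreases were led by Psmc2 with -0.07 (adjusted p = 0.000179 in edgeR). The median over the 46 genes was 0.022, beside 0.007 over all genes. With library totals in place of TMM factors, 36 were called higher and 0 lower.

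Pms1 null and WT animals were compared without the knock-in. In Pms1 null against WT striatum some constitutive subunits of the core and the regulatory particle were called lower by small amounts. The inducible subunits and activators were not called, which does not show that they were unchanged. Psmb8 averaged 2.115 ± 0.343 CPM in Pms1 null and 2.28 ± 0.514 CPM in WT (SD, n = 8 each). Psmb10 averaged 6.33 ± 0.579 CPM in Pms1 null and 5.67 ± 0.671 CPM in WT. Of the 46 genes 0 were higher and 10 were lower in edgeR, beside 4.01% of all genes higher and 3.90% lower. DESeq2 gave 0 higher and 10 lower as well, and at an unadjusted p below 0.05 edgeR had 1 higher and 19 lower. The log2 fold change was negative for 39 of the 46, with a median of -0.054 beside 0.003 over all genes.

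Psmd14, the deubiquitinase of the regulatory lid, was at 61.9, 65.5 and 67.3 CPM in Pms1 null striatum and 67.2, 70.9 and 72.9 CPM in WT striatum (log2 fold change -0.12, SE 0.028, adjusted p = 0.00706). Psma2, an alpha ring subunit, was at 45.6, 48.9 and 50.7 CPM in Pms1 null and 49.9, 52.0 and 54.1 CPM in WT (log2 fold change -0.11, SE 0.027, adjusted p = 0.0123). Psma3 was at 29.5, 31.9 and 34.1 CPM in Pms1 null and 33.2, 34.0 and 35.3 CPM in WT (log2 fold change -0.10, SE 0.032, adjusted p = 0.0378). In each of the 3 the groups overlapped at their edges. The other lower genes were the core subunits Psma1 and Psmb1, the ATPases Psmc1, Psmc2 and Psmc6, the scaffold subunit Psmd2 and the chaperone Psmd5, with log2 fold changes between -0.09 and -0.07.

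By role, 3 of 7 alpha subunits, 1 of 4 non-catalytic beta subunits, 3 of 6 ATPases, 2 of 11 other regulatory subunits and 1 of 7 chaperones were lower, and none of the 3 catalytic beta subunits was. The summed core level was 666.6, 681.4 and 714.2 CPM in Pms1 null and 689.4, 711.2 and 729.2 CPM in WT, and the summed regulatory level was 1307, 1374 and 1403 CPM in Pms1 null and 1375, 1416 and 1469 CPM in WT. In this comparison 4.01% of all genes were higher and 3.90% were lower. Of 12 ubiquitin and ubiquitin-activation genes 0 were higher and 5 were lower, among them the activating enzyme gene Uba6 (log2 fold change -0.17) and the conjugating enzyme gene Ube2d3 (-0.16). Of 13 partners 2 were lower, Shfm1 (-0.14) and Usp14 (-0.11), and of 12 shuttle genes 1 was lower, Rad23b (-0.12). Of 12 medium spiny neuron markers edgeR called 0, with 1 lower at an unadjusted p below 0.05, while 2 of 12 microglial and 2 of 12 endothelial and mural markers were lower. The part of these glial and vascular markers in these decreases was not tested.

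Pms1 genotype and the animals' code number cannot be told apart in full, because all 8 Pms1 null animals had late codes and only 2 WT animals did. Within the late codes edgeR called 0 of the 46 genes in Pms1 null against WT striatum, with log2 fold changes of -0.14 for Psmd14, -0.12 for Psma2 and -0.12 for Psma3 (adjusted p between 0.199 and 0.344). Without the 4 striatal libraries with high Slc17a7, of which 2 were Pms1 null, 8 were lower. The count of lower genes was 4 when only the 2 genotypes were fitted and 0 in either sex alone. In Pms1 het against WT striatum edgeR called 0 of the 46, with 0 higher and 4 lower at an unadjusted p below 0.05 and 0 called by DESeq2, and 0% of all genes were called.

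**Figure D4:**
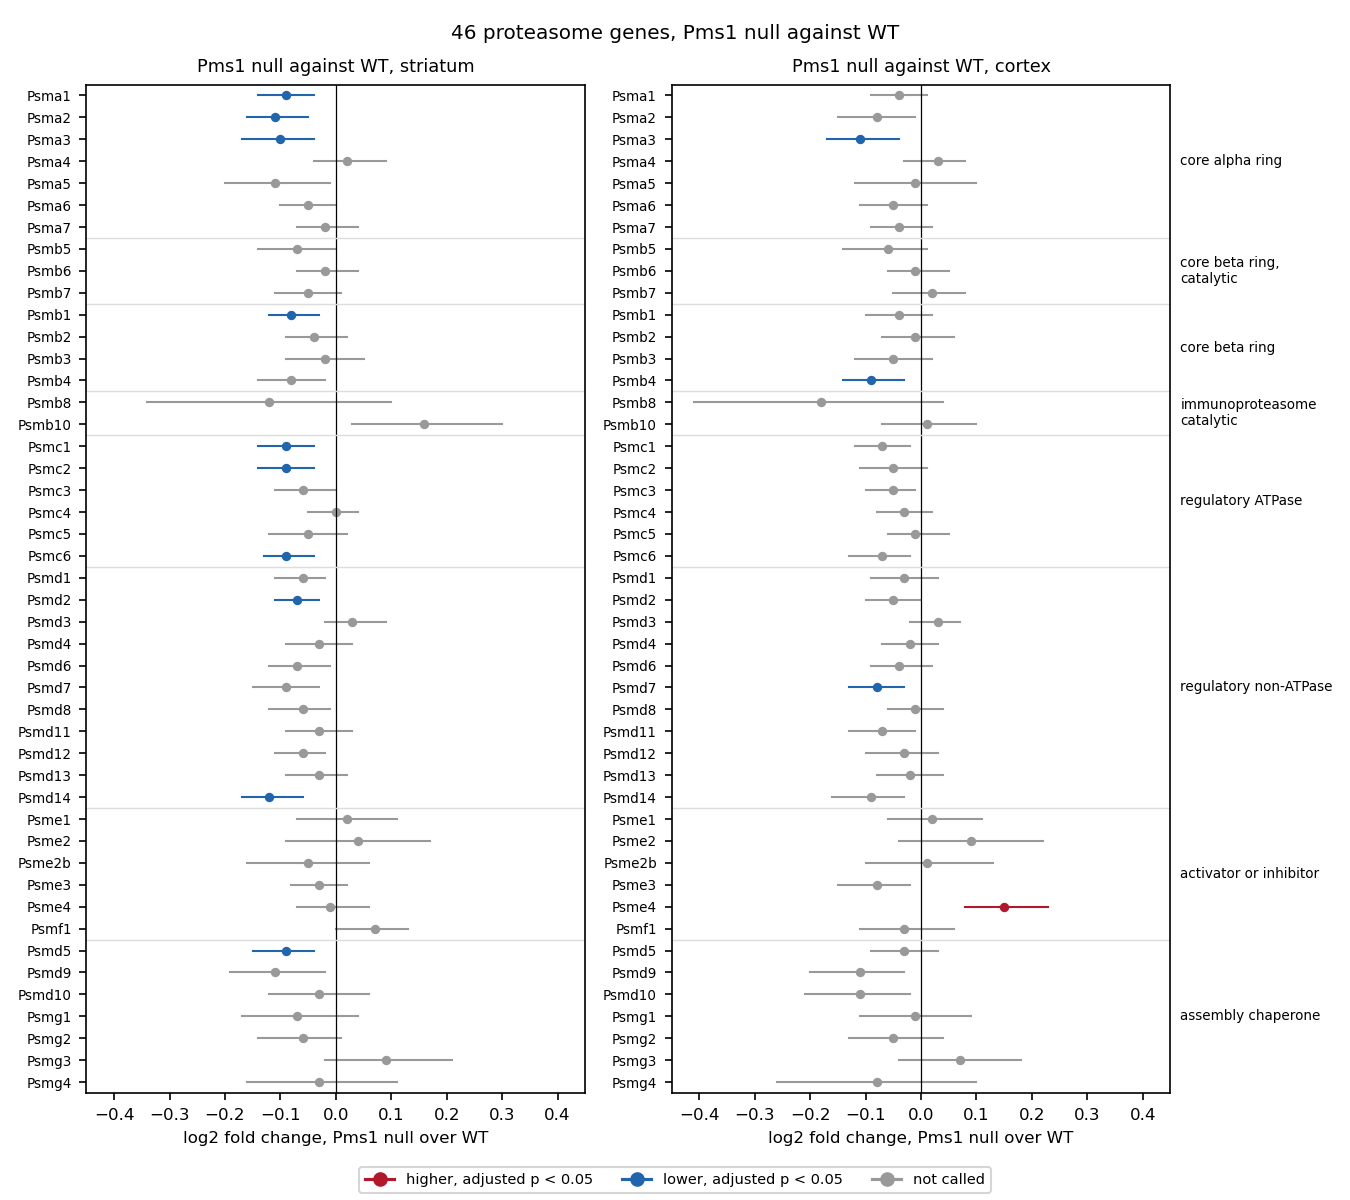
Log2 fold change of Pms1 null over WT for each of the 46 proteasome genes, grouped by role, in striatum (left) and cortex (right), with the 95% interval as a line; red is higher, blue is lower and grey is not called. Most points lie left of 0 in both tissues (39 of 46 in striatum and 37 of 46 in cortex), with 10 called lower in striatum and 3 in cortex.

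In cortex, edgeR called 0 of the 46 genes in Q140 against WT, beside 0.0267% of all genes higher and 0.0160% lower. At an unadjusted p below 0.05 there were 0 higher and 1 lower, and DESeq2 called 0. Psme1 was at 17.2, 19.3 and 19.7 CPM in Q140 cortex and 17.2, 18.1 and 20.1 CPM in WT cortex (log2 fold change 0.04, adjusted p = 0.896). Psmb10 was at 20.3, 21.6 and 24.1 CPM in Q140 cortex and 19.4, 21.1 and 23.3 CPM in WT cortex (log2 fold change 0.04, adjusted p = 0.909). The cortical sums of Psme1, Psme2 and Psme2b overlapped, at 29.1, 31.5 and 32.4 CPM in Q140 and 28.8, 30.3 and 32.6 CPM in WT. Psme2 alone averaged 4.69 CPM in Q140 cortex and 4.27 CPM in WT cortex. Its Q140 effect differed between striatum and cortex by only 0.03 on the log2 scale (edgeR, adjusted p = 0.896).

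The difference of the Q140 effect between the tissues was tested in a fit over all 96 libraries. For Psme1 the effect was larger in striatum than in cortex by 0.36 on the log2 scale (SE 0.060, adjusted p = 2.58e-06), and for Psmb10 by 0.25 (SE 0.078, adjusted p = 0.0207). For Psmc5 the striatum minus cortex difference was -0.14 (SE 0.047, adjusted p = 0.039) and for Psmd3 it was -0.11 (SE 0.034, adjusted p = 0.0244). These were 2 higher and 2 lower of 46, beside 4.95% and 8.32% of all genes. Both tissues came from the same animals, and with the animal as a block 4 were higher and 2 were lower.

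Averaged over the 3 backgrounds, the knock-in effect in cortex was called for 1 of the 46 genes, beside 0.700% of all genes higher and 1.03% lower. The gene was Psme2, with a mean log2 effect of 0.14 (SE 0.038, adjusted p = 0.0367). In the cortex of Q140 Pms1 het against Pms1 het edgeR and DESeq2 called 0 of the 46, beside 0.0695% of all genes higher and 0.0428% lower, with 4 higher and 4 lower at an unadjusted p below 0.05 in edgeR. In that of Q140 Pms1 null against Pms1 null both tools called 0, beside 0.0160% higher and 0.0267% lower, with 0 higher and 2 lower at an unadjusted p below 0.05. The Q140 effect of females minus males in cortex was called by edgeR for 0 of the 46, beside 0.0160% higher and 0.0107% lower of all genes, with 0 higher and 5 lower at an unadjusted p below 0.05.

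In Pms1 null against WT cortex 1 gene was higher and 3 were lower, beside 5.31% and 4.26% of all genes. Psme4, which encodes the activator PA200, was at 68.1, 75.9 and 86.8 CPM in Pms1 null cortex and 62.9, 68.9 and 76.6 CPM in WT cortex (log2 fold change 0.15, SE 0.038, adjusted p = 0.0074).

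The lower genes in Pms1 null cortex were subunits of the core and the lid. Psma3 was at 31.4, 32.7 and 34.2 CPM in Pms1 null cortex and 34.1, 34.7 and 37.5 CPM in WT cortex (log2 fold change -0.11, SE 0.033, adjusted p = 0.0327), and it was lower in both tissues. Psmb4 was at 64.0, 65.9 and 69.3 CPM in Pms1 null and 66.9, 69.8 and 76.0 CPM in WT (log2 fold change -0.09, SE 0.028, adjusted p = 0.0432). Psmd7 was at 73.6, 77.7 and 83.0 CPM in Pms1 null and 80.3, 81.5 and 86.5 CPM in WT (log2 fold change -0.08, SE 0.025, adjusted p = 0.0386). With the first code number as a correlated block 1 gene was lower (Psmd7, limma voom, adjusted p = 0.0485), with late codes alone 1 was lower (Psma3, adjusted p = 0.0446 in edgeR) and none was higher, and without the filter 0 were lower. The median over the 46 genes was -0.035, beside 0.004 over all genes. In Q140 Pms1 null against Q140 cortex edgeR and DESeq2 each called 0 of the 46, beside 0.0107% of all genes higher and 0% lower, with 0 higher and 10 lower at an unadjusted p below 0.05 in edgeR. The Pms1 het comparisons in cortex gave 0 calls of the 46 by either tool, beside 0% of all genes called by edgeR, with 0 higher and 9 lower of the 46 at an unadjusted p below 0.05 in Pms1 het against WT, and 0 higher and 5 lower in Q140 Pms1 het against Q140.

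WT striatum and WT cortex were compared in the same fit, which had no term for the animal although each animal gave both tissues. Of the 46 genes 14 were higher and 20 were lower in WT striatum than in WT cortex, beside 38.5% and 37.5% of all 19723 genes tested, with a median of -0.051 for the 46 and 0.016 for all genes. The share called was close to that of all genes. Psmb10 was at 4.61, 5.66 and 6.65 CPM in WT striatum and 19.8, 21.4 and 23.6 CPM in WT cortex (log2 fold change -1.93, fold 0.26, SE 0.056, adjusted p = 3.61e-53). No other proteasome gene differed as much between the tissues. Psmb8 had a log2 fold change of -0.06 (edgeR, adjusted p = 0.608), with a 95% interval of -0.29 to 0.16.

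Psmf1, the gene of the inhibitor PI31, was at 21.8, 25.2 and 26.3 CPM in WT striatum and 30.6, 34.7 and 38.5 CPM in WT cortex (log2 fold change -0.49, SE 0.039, adjusted p = 1.09e-20). Psmc3, an ATPase, was at 87.0, 93.2 and 100.3 CPM in striatum and 114, 119 and 122 CPM in cortex (log2 fold change -0.33, SE 0.026, adjusted p = 6.57e-21), and 5 of 6 ATPases were lower in striatum and 1 was higher. All 3 genes had separate tissue ranges.

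Higher in striatum were Psmg4, an assembly chaperone, at 3.91, 4.18 and 4.64 CPM in WT striatum and 2.03, 2.34 and 3.08 CPM in WT cortex (log2 fold change 0.84, SE 0.080, adjusted p = 6.35e-17), and Psme2 at 5.05, 5.56 and 6.05 CPM in striatum and 4.01, 4.36 and 4.58 CPM in cortex (log2 fold change 0.36, SE 0.065, adjusted p = 6.98e-07). The catalytic subunits differed in direction. Psmb6 was higher in striatum, at 63.5, 69.0 and 72.0 CPM against 54.2, 56.6 and 58.9 CPM in cortex (log2 fold change 0.29, SE 0.028, adjusted p = 1.35e-16). Psmb5 and Psmb7 were lower, with log2 fold changes of -0.20 and -0.13. Psme1, which differed most with the knock-in, had a log2 fold change of -0.15 between the tissues (edgeR, adjusted p = 0.00154).

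**Figure D5:**
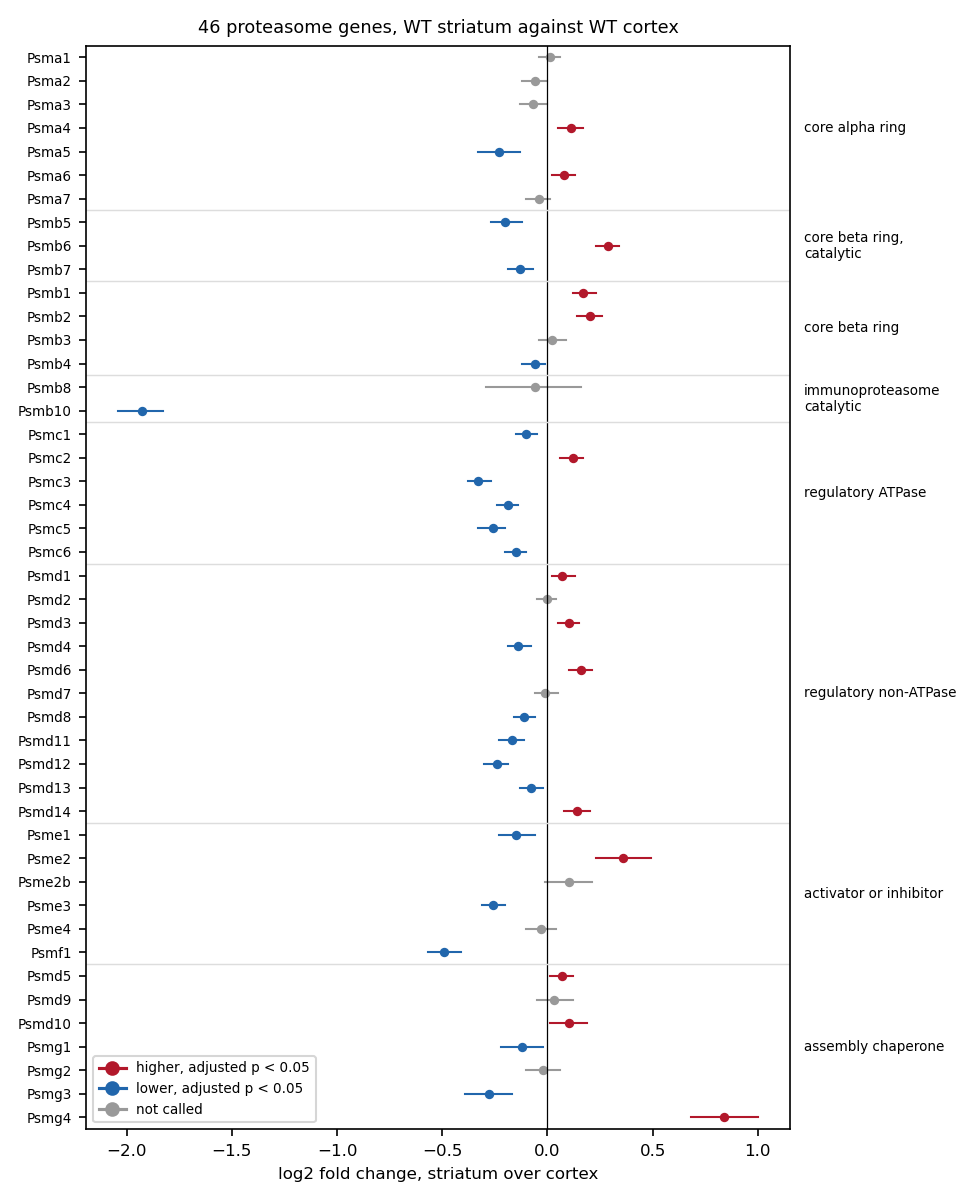
Log2 fold change of WT striatum over WT cortex for each of the 46 proteasome genes, grouped by role, with the 95% interval as a line; red is higher in striatum, blue is lower and grey is not called. Psmb10 lies alone at -1.93 and Psmg4 at 0.84, and the other called genes lie between -0.49 and 0.36.

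Within genotypes the levels of most pairs of constitutive subunits were positively correlated between animals. This held for 87 of 91 core pairs and 131 of 136 regulatory pairs in striatum, and for 76 of 91 and 131 of 136 in cortex. After removal of genotype and sex means, the median pairwise Pearson correlation over 48 libraries was 0.298 among the 14 core subunits and 0.343 among the 17 regulatory subunits in striatum, and 0.292 and 0.438 in cortex. Among all 15422 genes that reached the same level limit it was -0.001 in striatum and -0.002 in cortex. This baseline was not matched for level. It reaches down to 1 CPM, while the core and regulatory subunits averaged between 11.4 and 159 CPM. A median near 0 over all genes may also follow from how the libraries were scaled. The baseline therefore cannot show whether the subunits correlate more than other genes of their level. The median correlation of Psmb10 with core and regulatory subunits was 0.013 in striatum and 0.06 in cortex, and that of Psmb8 was -0.196 and -0.103. Some core subunits were also near 0 in cortex, such as Psmb3 (-0.018) and Psma4 (0.044). Psme1 and Psme2, whose products form a heteromeric ring, correlated at 0.056 in striatum and 0.076 in cortex. The points share library, depth and dissection, and no test was made.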

How the data were processed

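Strand-specific RNA libraries were made from dissected striatum and cortex, per the labels' protocols. The submitters' processing notes name STAR 2.7.5c, SAMtools 1.10 and HTSeq 0.12.3 and the builds GRCm38 and mm10. For the strand setting and annotation release of the counting step nothing was given in the sources used here. The deposited table holds raw read counts per gene, and a second deposited table holds the authors' FPKM values, used here only to set genes side by side. The proteasome genes and all gene lists were chosen with earlier results of these data known.

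Per tissue, the counts of 48 libraries were filtered (filterByExpr), scaled by TMM and fitted with edgeR 4.0.16 (quasi-likelihood, robust, genotype plus sex, R 4.3.3), and p-values were adjusted by Benjamini-Hochberg over all genes, with a threshold of 0.05. CPM values are TMM-scaled. WT tissues, and the Q140 effect between tissues, were compared in a fit over 96 libraries without a term for the animal. Both tissues come from the same animals, which pairs them, and the reported p-values leave this pairing out. Nothing in the labels says that the animals of a genotype are from separate litters. Full values were given for up to 3 called genes per direction and comparison, the catalytic subunits and Psmd14, and for up to 2 called genes per direction of each other list.

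Alternatives were RLE factors, library totals, no filter, each sex alone, fits of the 2 genotypes alone, early codes, the first code number as a correlated block (limma 3.58.1 voom), the animal as a block and DESeq2 1.42.0. Late codes alone, the fit without 4 striatal libraries over 10 CPM of Slc17a7 and both interferon motifs were chosen after seeing the data. Protein sequences were not used here. Some genes of the lists are not reported here. The analysis was tested on simulated data.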

Additional observations from a re-analysis of the deposited data

Results flagged for a closer look

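In the Pms1 het striatum 1 animal had 15.4 CPM of Psme1, lower than the next animal at 17.3 CPM by more than the spacing of the rest, and in WT cortex 1 animal had 76.0 CPM of Psmb4, above the next at 70.6 CPM. Of groups of 8 animals, 51 were checked in this way, and chance sets such an animal apart in about 1 of 20 groups.

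The Q140 effect on striatal Psme1 differed between the Pms1 null and the WT background, by -0.23 on the log2 scale. The Pms1 null background and late code numbers cannot be told apart in full. Between striatum and cortex the Q140 effect differed for Psme1 (0.36) and Psmb10 (0.25), with the larger value in striatum, and for Psmc5 (-0.14) and Psmd3 (-0.11), all as striatum minus cortex on the log2 scale. Each of these differences passed an adjusted p of 0.05 in edgeR's interaction test.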

How the results depend on the processing

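Of 376 counts of called proteasome genes under the alternatives, 306 stayed within 1.5 times the reported count and 70 did not. Counts of 0 that stayed at 0 are among the 306, so this share says little about how firm the nonzero counts were. Among values of single genes and motif shares, 303 of 398 were graded unchanged, 93 lost their call, 1 gained a call and 1 was reversed. The 303 include all 4 motif shares on the gene strand alone, although CCAAT turned direction there. The grade unchanged therefore does not always mean that the direction was kept. With library totals the log2 fold change of Psmb7 in Q140 against WT striatum turned to 0.074 (adjusted p = 0.0384 in edgeR). On the gene strand alone the share of proteasome genes with CCAAT was 28.2%, above the 23.7% of all genes. The changed counts follow by setting, in striatum unless cortex is named; a count of 0 is edgeR's unless another tool is named, and the causes were not tested except that sex and code subsets hold fewer animals.

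With library totals, 23 were higher and 0 lower in Q140 against WT, 21 higher and 0 lower in Q140 Pms1 het against Pms1 het, 9 higher in Q140 Pms1 null against Pms1 null, 0 higher and 4 lower in Q140 Pms1 null against Q140, 6 lower in Pms1 null against WT, 36 higher and 0 lower in the mean knock-in effect, and 13 higher and 0 lower in the Q140 effect of striatum minus cortex. Without the filter, 3 were lower in Pms1 null against WT and 0 in cortex, 3 higher and 1 lower in Q140 Pms1 het against Pms1 het, 1 higher in Q140 Pms1 null against Pms1 null, 0 higher in Q140 Pms1 null against Q140, 7 higher in the mean knock-in effect and 0 in cortex, and 0 lower in the tissue difference of the Q140 effect.

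In females alone, 2 were higher and 3 lower in Q140 against WT, 2 higher and 1 lower in Q140 Pms1 het against Pms1 het, and 3 higher in the mean knock-in effect. There were 0 lower in Pms1 null against WT in either tissue, 0 higher in Q140 Pms1 null against Pms1 null, 0 in either direction in Q140 Pms1 null against Q140, 0 higher in the cortical mean knock-in effect, and 1 higher and 0 lower in the tissue difference. In males alone, 1 was higher and 1 lower in Q140 against WT, 0 were lower in Q140 Pms1 het against Pms1 het, in Pms1 null against WT and in the mean knock-in effect, 0 were called in Q140 Pms1 null against Pms1 null or against Q140, and 0 were lower in the Pms1 null minus WT difference of the knock-in effect. In male cortex 1 was lower in Q140 Pms1 het against Pms1 het, and 0 were called in Pms1 null against WT and in the mean knock-in effect; 1 was higher and 0 lower in the tissue difference, and 9 were higher in WT striatum than in WT cortex.

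With late codes alone, 0 were called in Q140 against WT, in Pms1 null against WT and in Q140 Pms1 null against Q140, and 0 were higher and 1 lower in Pms1 null against WT cortex. With the first code number as a correlated block, 3 were lower in Q140 against WT, 1 in Q140 Pms1 het against Pms1 het, 6 in Pms1 null against WT and 1 in cortex, and 0 were higher in Q140 Pms1 null against Q140. With only the 2 genotypes fitted, 4 were lower in Pms1 null against WT and 1 in cortex, 3 higher in Q140 Pms1 het against Pms1 het and 0 higher in Q140 Pms1 null against Q140. Without the 4 libraries high in Slc17a7, 1 was lower in Q140 Pms1 het against Pms1 het. DESeq2 called 4 higher in Q140 Pms1 null against Pms1 null and 2 higher in the Pms1 null minus WT difference of the knock-in effect.

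With the animal as a replicate block, the pairing of both tissues gave 4 higher and 2 lower in the tissue difference of the Q140 effect, and 15 higher and 22 lower in WT striatum against WT cortex. The genes named in those comparisons kept their calls. Within a tissue the genotypes share no animals, and only the first code number, of unstated meaning, could be used as the block given above. Depth limits Psmb8 and Psmb9, at about 1 to 2 CPM, more than the other genes.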
